A study of Mus musculus with 12 samples.

Results

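The 10 genes described here drive or restrain entry into the cell cycle: the D-type cyclins Ccnd1, Ccnd2 and Ccnd3, the Myc family genes Myc, Mycn and Mycl, the Cip/Kip inhibitors Cdkn1a, Cdkn1b and Cdkn1c, and the INK4 inhibitor Cdkn2c. They were chosen by name, 10 of 39017 genes in the count table, and all 10 passed the filter on low counts that left 14953 genes. They were measured by RNA-seq of whole adrenal glands from 12 female mice aged 10 to 11 weeks on a mixed sv129-C57Bl/6 background. The 6 control (Ctrl) mice were AS Cre/+ and the 6 βCat-GOF mice were AS Cre/+ with 1 Ctnnb1 fl(ex3) allele. AS Cre places the recombinase at the aldosterone synthase (Cyp11b2) locus, which is active in cells of the zona glomerulosa (zG), and both groups carry it. Recombination of the floxed allele removes exon 3 of Ctnnb1 and leaves a stabilized β-catenin. The study asked which transcripts change when β-catenin is stabilized in zG cells. Each library averages the zG, zona fasciculata (zF), medulla, capsule and vessels, so that fewer cells of a type and less RNA per cell cannot be told apart.

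D-type cyclins bind Cdk4 and Cdk6 and release E2F factors by phosphorylating Rb, which commits a cell to DNA replication. Myc proteins pair with Max and drive genes of growth and ribosome production, and Cip/Kip and INK4 proteins hold cyclin-dependent kinases back. Ccnd1 and Myc are widely used as β-catenin targets in other tissues, and in the adrenal cortex canonical Wnt signalling through β-catenin is known for its part in zG identity.

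The total count per library was 14090378 to 25625494 in Ctrl and 13484675 to 24951480 in βCat-GOF (exact permutation p = 0.777, two-sided, n = 6 per group). Ctnnb1 itself was at a median of 21817 normalized counts in Ctrl and 21641 in βCat-GOF (log2 fold change -0.02, SE 0.08, edgeR adjusted p = 0.907), and gene-level counts do not separate the allele lacking exon 3. Of the β-catenin targets that the study named, Notum, Nkd1, Apcdd1 and Tcf7 were higher in βCat-GOF, 4 of 6, although the study picked them on these samples. Among zG markers 4 of 8 were called higher, and their summed level was 26323 to 40658 normalized counts in Ctrl against 36427 to 65436 in βCat-GOF. Of the 8 zG markers, 1 had a negative log2 fold change, Cyp11b2 (-0.18, SE 0.36, edgeR adjusted p = 0.82). Among zF markers 1 of 6 was called higher and 2 had negative log2 fold changes. Among macrophage markers 3 of 6 were called lower. When all genes tested were clustered, all 6 Ctrl mice and βCat-GOF mice 1 and 2 fell on 1 branch and the other 4 βCat-GOF mice on the other. The labels of βCat-GOF mice 1 and 2 share a stem, as do 2 pairs of Ctrl mice, and the counts of the 3 pairs differed by more than sampling noise. That does not settle whether they are separate animals, and they were treated as such. With 1 mouse of each pair left out, Ccnd1 was at a log2 fold change of 0.49 (edgeR adjusted p = 0.174), against 0.67 (adjusted p = 0.0746) with all mice. In the same fit Mycl was at -2.16 (adjusted p = 0.0104), against -1.67 (adjusted p = 0.0252). All Ctrl labels begin with 1 number and all βCat-GOF labels with others, so what that number stands for and the genotype cannot be told apart.

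Mycl was the only one of the 10 genes that passed the test between the groups, and it fell. No gene was called higher, and the ranges of the groups overlapped for all 10. Over all genes tested, 2.16% were called higher and 1.52% lower in βCat-GOF (edgeR quasi-likelihood test, Benjamini-Hochberg adjusted p under 0.05). In 2.78% of all genes the groups did not overlap. At an unadjusted p under 0.05, 3 of the 10 genes passed (Ccnd1, Ccnd2 and Mycl), against 20.4% of all genes. The median log2 fold change was 0.08 over the 10 genes and 0.00 over all genes tested.

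**Figure D1:**
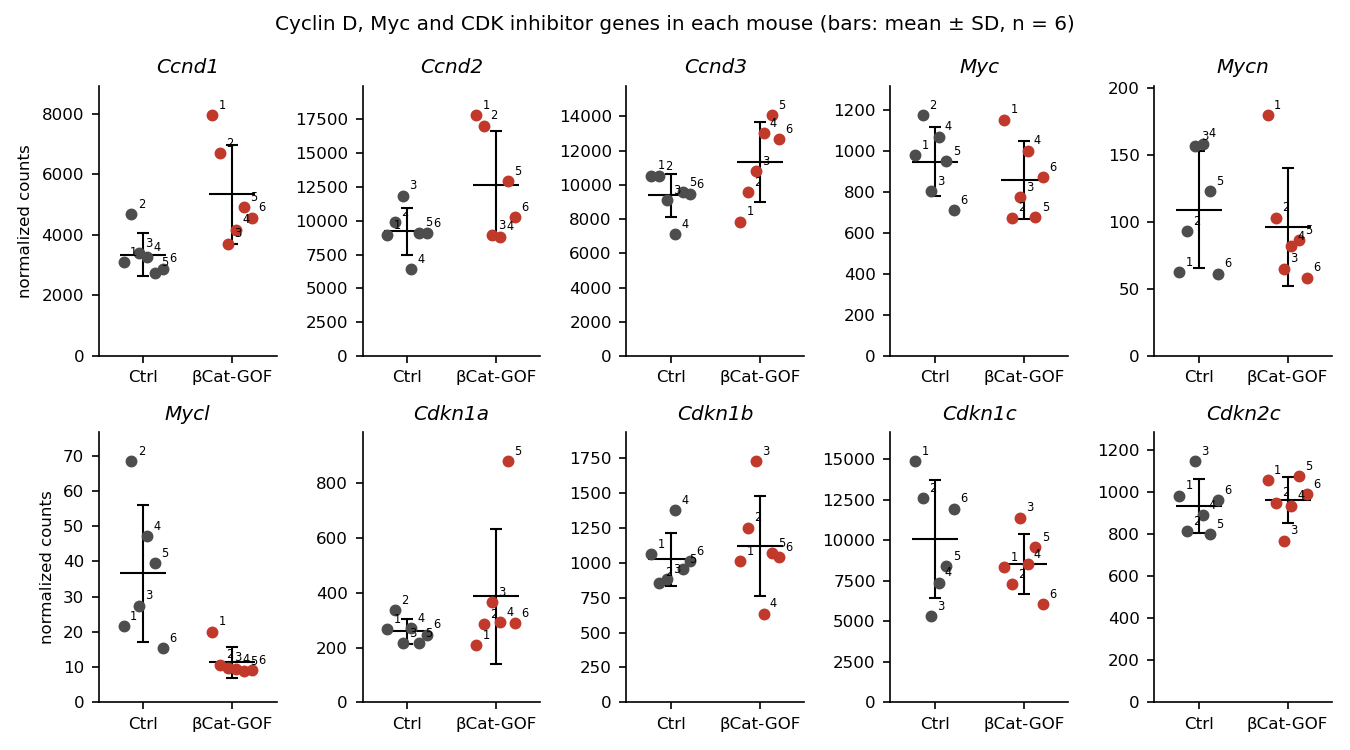
Normalized counts (y axis, from 0) of each gene in the 6 Ctrl (grey) and 6 βCat-GOF (red) mice, numbered by mouse, with the mean ± SD in black. Mycl lies below 15.4 in 5 of 6 βCat-GOF mice, and βCat-GOF mice 1 and 2 stand highest for Ccnd1 and Ccnd2.

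Per kb of annotated exon, the only scale on which levels of different genes are compared here, Cdkn1c stood first in Ctrl at 4951 ± 1778 normalized counts (SD, n = 6). Ccnd3 (1069 ± 142), Ccnd2 (981 ± 186) and Ccnd1 (711 ± 148) followed. Myc was at 349 ± 62.4, Cdkn2c at 347 ± 47.9, Cdkn1b at 225 ± 41.4, Cdkn1a at 73.1 ± 12.5, Mycn at 33.2 ± 13.3 and Mycl at 9.06 ± 4.82. Neighbours whose ranges overlapped were Ccnd3 and Ccnd2, Ccnd2 and Ccnd1, Myc and Cdkn2c, and Cdkn2c and Cdkn1b. For Ccnd3 the annotated exons span 8775 bases and the longest transcript 3858, so its level per kb depends on the length used.

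Ccnd1, the cyclin D1 gene (ENSMUSG00000070348, GRCm38 chromosome 7, 144929931 to 144939925, minus strand), ranged from 2750 to 4686 normalized counts in Ctrl (median 3189) and from 3713 to 7962 in βCat-GOF (median 4745). βCat-GOF mice 1 and 2 were highest (7962 and 6699), 3 of 6 βCat-GOF mice lay above every Ctrl mouse, and Ctrl mouse 2 lay within the βCat-GOF range. The log2 fold change was 0.67 (SE 0.19), with an edgeR adjusted p of 0.0746, so Ccnd1 did not pass. A single-gene exact permutation test gave p = 0.013 (two-sided, n = 6 per group). The call depended on the tool: with DESeq2, where 3.98% of genes were called higher and 3.32% lower, the adjusted p was 0.0134. With 1 surrogate variable in edgeR, where 3.03% were called higher and 1.19% lower, Ccnd1 was at 0.92 with an adjusted p of 0.00192. That variable ran from -0.39 to 0.20 in Ctrl. In βCat-GOF it was lowest in mouse 1 (-0.41), the highest for Ccnd1, and highest in mouse 3 (0.51), the lowest for Ccnd1. The part of this in the larger change was not tested. A share of 23.4% of Ccnd1 exon sequence overlaps LTO1 (Oraov1) on the other strand, and Oraov1 was at a log2 fold change of -0.06 (edgeR adjusted p = 0.742).

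Ccnd2, cyclin D2 (ENSMUSG00000000184, chromosome 6, 127125162 to 127152193, minus strand), ranged from 6443 to 11869 in Ctrl (median 9116) and from 8822 to 17839 in βCat-GOF (median 11614). The same 2 mice, βCat-GOF 1 and 2, were the highest, at 17839 and 17047, while βCat-GOF mice 3, 4 and 6 lay among the Ctrl mice. The log2 fold change was 0.45 (SE 0.20, edgeR adjusted p = 0.225), and with 1 surrogate variable it was 0.70 (adjusted p = 0.019). Ccnd3, cyclin D3 (ENSMUSG00000034165, chromosome 17, 47505051 to 47599691, plus strand), showed another order of mice: it ranged from 7131 to 10538 in Ctrl (median 9522) and from 7851 to 14090 in βCat-GOF (median 11742), and βCat-GOF mouse 1 was the lowest of its group. Its log2 fold change was 0.26 (SE 0.14, edgeR adjusted p = 0.309), with 4 of 6 βCat-GOF mice above every Ctrl mouse.

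βCat-GOF mice 1 and 2 were left out together as an added setting because they had the highest Ccnd1 and Ccnd2. That choice was made on these values, so the lower log2 fold changes of Ccnd1 (0.36, edgeR adjusted p = 0.112) and Ccnd2 (0.14, adjusted p = 0.599) follow in part from it and are a description. The same holds for Ccnd3, since these were also the 2 lowest βCat-GOF mice for it (7851 and 9596): its log2 fold change was 0.42 without them (adjusted p = 0.0408), which is no independent pass. The 2 mice also had the highest zG marker sums (65436 and 62267 normalized counts) and the lowest zF marker sums of the 12 mice (731581 and 935164). The highest zF sums were in βCat-GOF mice 3, 4 and 6, and the part of zG and zF content in the cyclin values was not tested.

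**Figure D2:**
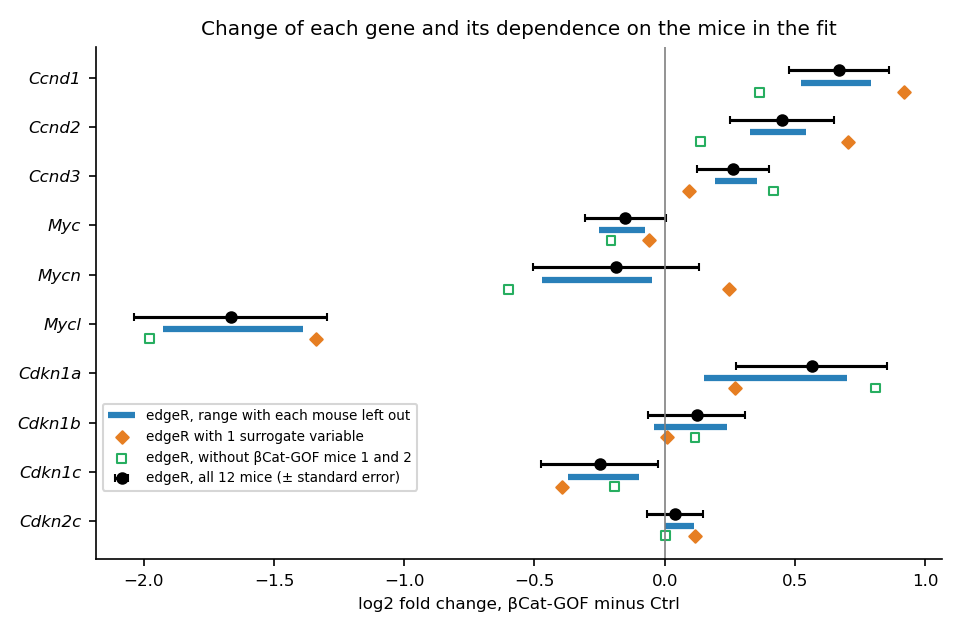
log2 fold change (x axis, βCat-GOF minus Ctrl) of each gene in edgeR with all 12 mice (black, ± SE), the range with each mouse left out (blue), with 1 surrogate variable (orange) and without βCat-GOF mice 1 and 2, which were chosen for their Ccnd1 and Ccnd2 values (green). Mycl stays below -1.3 throughout, and Ccnd1 moves from 0.67 to 0.92 with the surrogate variable and to 0.36 without the 2 mice.

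Summed per kb, the 3 D-type cyclins came to 2193 to 3245 normalized counts in Ctrl (median 2735) and 2968 to 4481 in βCat-GOF (median 3767), and these ranges overlapped. The means were 2762 ± 360 in Ctrl and 3770 ± 601 in βCat-GOF (SD, n = 6), 1008 apart, which is more than either SD. The sum was formed after the values were seen, so this is a description without a test. No cyclin passed the test on its share of that sum: Ccnd1 made up 25.8% ± 4.24 of the sum in Ctrl and 29.6% ± 4.71 in βCat-GOF (SD, n = 6, exact permutation p = 0.18, two-sided). Ccnd3 took 38.8% ± 3.21 and 35.4% ± 10.2, with the wider spread in βCat-GOF (exact permutation p = 0.455). The size of these shares depends on the length used. With the longest transcript as length, Ccnd3 took 50.9% ± 3.33 in Ctrl and 46.9% ± 11.6 in βCat-GOF (exact permutation p = 0.452), and Ccnd2 30.4% and 30.9%.

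**Figure D3:**
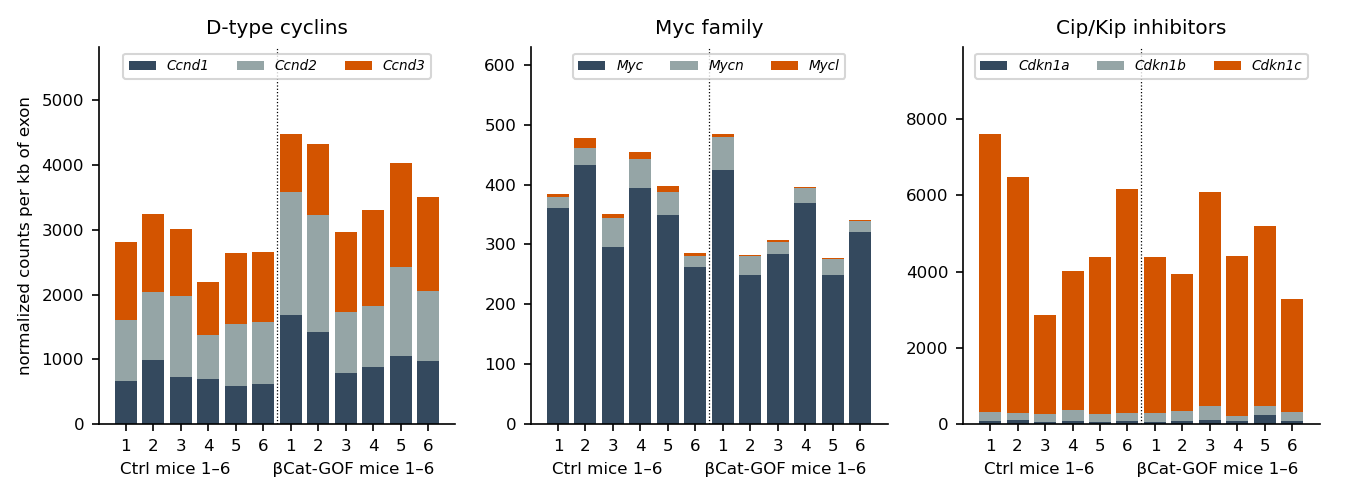
Normalized counts per kb of exon (y axis, from 0) for the D-type cyclins, the Myc family and the Cip/Kip inhibitors, stacked by gene for Ctrl mice 1 to 6 and βCat-GOF mice 1 to 6. Cdkn1c fills most of each Cip/Kip bar and Myc most of each Myc bar, and the summed cyclins reach 4481 in βCat-GOF.

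Within a group the cyclins were set against a β-catenin target score, the mean log2 CPM of Axin2, Tcf7, Lef1, Notum, Nkd1 and Apcdd1, which the study chose on these samples. The score was 3.81 to 4.46 in Ctrl and 4.77 to 6.03 in βCat-GOF, with mouse 1 and then mouse 2 highest. Over the 6 βCat-GOF mice Ccnd1 went with the score (Pearson r = 0.93, exact permutation p = 0.00972, adjusted over 20 relations 0.0486; Spearman rho = 0.94, exact permutation p = 0.0167, adjusted 0.0667). In each group r was also taken over 4 mice, without the 2 farthest from the median score. These were mice 1 and 3 in βCat-GOF and mice 3 and 4 in Ctrl. βCat-GOF mouse 2 thus stayed in, and r was not taken without βCat-GOF mice 1 and 2 together. For Ccnd1 in βCat-GOF the r over 4 mice was 0.78. In Ctrl the r of Ccnd1 was 0.22 (exact permutation p = 0.643, adjusted 0.804). Ccnd2 went with the score in Ctrl (r = 0.96, exact permutation p = 0.00139, the smallest that 6 mice allow, adjusted 0.0278; rho = 1, exact p = 0.00278, adjusted 0.0556), with 0.80 after the same omission. In βCat-GOF Ccnd2 had r = 0.89 (exact permutation p = 0.0236, adjusted 0.0944; rho = 0.94, exact p = 0.0167, adjusted 0.0667), with 0.75 after it. Mycn in βCat-GOF (r = 0.96, exact permutation p = 0.00417, adjusted 0.0278; rho = 0.94, exact p = 0.0167, adjusted 0.0667; 0.99 after the omission) and Cdkn1b in Ctrl (r = -0.93, exact permutation p = 0.00417, adjusted 0.0278; rho = -0.94, exact p = 0.0167, adjusted 0.0667; -0.91 after the omission) were the other 2 relations past the adjusted threshold. Of the 20 relations, 10 changed sign when the 2 farthest mice of the group were left out, none of them among these 4. No Spearman rho passed the threshold, and differences in r between the groups were not tested.

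**Figure D4:**
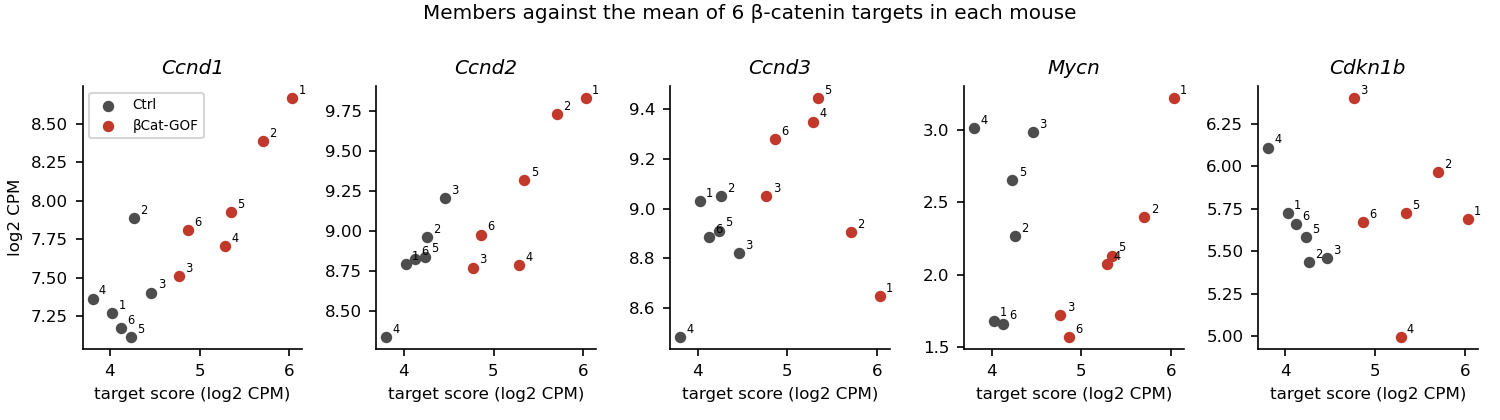
log2 CPM (y axis) of Ccnd1, Ccnd2, Ccnd3, Mycn and Cdkn1b against the mean log2 CPM of 6 β-catenin targets (x axis) in Ctrl (grey) and βCat-GOF (red) mice, numbered by mouse. βCat-GOF mice 1 and 2 are at the upper right for Ccnd1 and Ccnd2 and at the lower right for Ccnd3.

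Mycl and Mycn are the low members of the Myc family in the gland, and only Mycl passed the test. Their RefSeq promoter windows (GRCm38.p6, 250 bases before to 50 after the start) are shown to compare the gene that fell with its relative that did not pass. Capitals mark exact matches, read on both strands, to a TATA box spelled TATAAA, to an E2F motif spelled TTTGGCGC and to a GC box spelled GGGCGG. No match overlaps another.
Mycl, chr4:122995681-122995980, plus strand: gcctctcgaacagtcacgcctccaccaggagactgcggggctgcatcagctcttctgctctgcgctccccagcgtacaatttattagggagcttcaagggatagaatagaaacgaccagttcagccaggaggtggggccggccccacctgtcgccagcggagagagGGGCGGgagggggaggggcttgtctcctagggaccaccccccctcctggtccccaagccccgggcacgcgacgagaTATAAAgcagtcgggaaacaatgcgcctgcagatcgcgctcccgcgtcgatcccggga
Mycn, chr12:12941787-12942086, minus strand: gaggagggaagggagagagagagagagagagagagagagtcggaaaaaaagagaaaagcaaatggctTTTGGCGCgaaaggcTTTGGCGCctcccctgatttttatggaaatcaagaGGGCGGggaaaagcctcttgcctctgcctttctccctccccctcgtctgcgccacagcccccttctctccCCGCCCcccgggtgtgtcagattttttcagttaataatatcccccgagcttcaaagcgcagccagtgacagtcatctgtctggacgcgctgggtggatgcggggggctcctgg

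Of the 10 genes, 6 have an entry in the promoter table, with 9 windows in all. Ccnd1, Ccnd2, Myc and Cdkn1c have none. The TATA box match lies 8 bases before the start of Mycl, and 13.6% of 32851 promoters hold one. Mycn holds 2 E2F matches, against 0.514% of promoters with any. GC boxes were in 7 of 9 windows (35.7% of all promoters), and the E-box CACGTG was in 1, of Cdkn2c (7.15%). The TCF/LEF motif CTTTGAT was in 0 of 9 (3.73%). These are matches of letters and not shown to be sites.

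Mycl, which encodes L-Myc (ENSMUSG00000028654, chromosome 4, 122995652 to 123002485, plus strand), ranged from 15.4 to 68.3 normalized counts in Ctrl (median 33.5) and from 8.87 to 20.1 in βCat-GOF (median 9.67). In 5 of 6 βCat-GOF mice it was below every Ctrl mouse, and βCat-GOF mouse 1 lay between the lowest Ctrl mouse (15.4) and the next (21.5). The log2 fold change was -1.67 (SE 0.37), 3.17-fold lower, with an edgeR adjusted p of 0.0252. These are small numbers of reads: 11 to 82 raw counts in Ctrl and 6 to 26 in βCat-GOF, and the mean of 24.0 normalized counts is under the base mean of 100 that the study required. With the study's cut-offs, which called 1.48% of genes higher and 0.869% lower, none of the 10 genes passed. The adjusted p was 0.00115 with DESeq2 and 0.0664 with 1 surrogate variable. Mycl kept its call in 8 of 12 fits that left out 1 mouse and lost it without Ctrl mouse 4 (0.0543) or βCat-GOF mouse 2 (0.0516), 5 (0.0548) or 6 (0.0553). Macrophage marker sums were 3337 to 5098 normalized counts in Ctrl and 2797 to 4544 in βCat-GOF. Lymphocyte markers had lower means in 4 of 4 tested, with 1 called lower and sums of 412 to 571 in Ctrl against 199 to 432 in βCat-GOF. Endothelial markers had negative log2 fold changes in 6 of 6 and medullary markers in 5 of 6, with 0 called lower in either list. The part of any of these cell types in the fall of Mycl was not tested.

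Per kb, Mycl made up 2.21% ± 0.835 of the Myc family in Ctrl and 0.802% ± 0.162 in βCat-GOF (SD, n = 6, exact permutation p = 0.00216, two-sided, the smallest that 6 against 6 mice allow; 0.0195 adjusted over 9 shares), and the groups did not overlap. The share uses the same low Mycl counts as the test of its level, so it is no independent result. How often such shares fail to overlap over all genes was not examined. The genes with the profile most like that of Mycl over the 12 mice were Smarcd1 (r = 0.94), Nav3 (r = 0.93) and Ank2 (r = 0.92), named by likeness alone. Ank2 was lower by test, at a log2 fold change of -0.45 (edgeR adjusted p = 0.0165), and Smarcd1 was at -0.28 (adjusted p = 0.123) and Nav3 at -0.41 (adjusted p = 0.196).

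Myc (ENSMUSG00000022346, chromosome 15, 61985391 to 61990374, plus strand) made up most of the family, and 714 to 1177 normalized counts in Ctrl (median 965) stood against 676 to 1154 in βCat-GOF (median 823). The log2 fold change was -0.15 (SE 0.16, edgeR adjusted p = 0.633), with an interval of 2 SE from -0.46 to 0.16, and the groups ran through each other. Mycn, which encodes N-Myc (ENSMUSG00000037169, chromosome 12, 12936093 to 12941914, minus strand), ranged from 61.5 to 159 in Ctrl (median 108) and from 58.6 to 180 in βCat-GOF (median 84.5). Its highest mouse was βCat-GOF mouse 1, and its log2 fold change was -0.19 (SE 0.32, edgeR adjusted p = 0.789), turning to 0.25 with 1 surrogate variable.

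Cdkn1a, which encodes the p53-inducible inhibitor p21 (ENSMUSG00000023067, chromosome 17, 29090976 to 29100727, plus strand), ranged from 216 to 337 in Ctrl (median 258) and from 210 to 880 in βCat-GOF (median 291). βCat-GOF mouse 5 stood alone at 880, and 367 was the next highest. The log2 fold change was 0.56 (SE 0.29, edgeR adjusted p = 0.291), and 0.15 without that mouse. Cdkn1b, which encodes p27 (ENSMUSG00000003031, chromosome 6, 134920401 to 134925513, plus strand), ranged from 857 to 1374 in Ctrl (median 982) and from 636 to 1725 in βCat-GOF (median 1053), with the lowest and the highest of the 12 mice both in βCat-GOF. Its log2 fold change was 0.12 (SE 0.19, edgeR adjusted p = 0.756).

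Cdkn1c, the imprinted gene for p57 (ENSMUSG00000037664, chromosome 7, 143458339 to 143461050, minus strand), ranged from 5322 to 14876 in Ctrl (median 10178) and from 6048 to 11407 in βCat-GOF (median 8461), all βCat-GOF mice lying within the Ctrl range. The log2 fold change was -0.25 (SE 0.22, edgeR adjusted p = 0.572, 2 SE interval -0.70 to 0.20), and 30.7% of its exon sequence overlaps Gm44732 on the other strand. It made up 93.7% ± 2.36 of the Cip/Kip sum per kb in Ctrl and 92.1% ± 1.80 in βCat-GOF. Cdkn2c, which encodes the Cdk4 and Cdk6 inhibitor p18 (ENSMUSG00000028551, chromosome 4, 109660876 to 109667189, minus strand), ranged from 801 to 1147 in Ctrl (median 927) and from 770 to 1075 in βCat-GOF (median 971), with the groups interleaved. Its log2 fold change was 0.04 (SE 0.11, edgeR adjusted p = 0.873), with a 2 SE interval of -0.17 to 0.25.

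Around the 10 genes, 8 lists of their partners, targets and neighbours held 104 genes, of which 102 were tested. By edgeR 1 was called higher and 0 lower, against 2.16% and 1.52% of all genes tested. An unadjusted p under 0.05 was reached by 31, against 20.4% of all genes. Of these, 14 were in the replication and mitosis list, and each other list held 0 to 5. The median log2 fold change over all genes was 0.00, and no list was tested as a set. The gene called higher was Gnl3 (nucleostemin, a nucleolar Myc target), at 0.43 (SE 0.11, adjusted p = 0.047). The count of genes called higher went to 0 when any of most single mice was left out, and to 10 without βCat-GOF mice 1 and 2. The Myc target list had higher means in 13 of 15 genes, with a median log2 fold change of 0.24. For replication and mitosis, the βCat-GOF mean exceeded the Ctrl mean in 24 of 24 genes and 14 had an unadjusted p under 0.05, with a median of 0.58 and 0 called. Ube2c, a mitotic ubiquitin-conjugating enzyme, led it at 0.99 (SE 0.28, edgeR adjusted p = 0.0675), ranging from 24.2 to 45.8 normalized counts in Ctrl and from 39.4 to 114 in βCat-GOF.

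The cyclin D partners and Rb-E2F genes had 15 of 18 higher means (median 0.16), led by the repressor E2f8 at 0.87 (edgeR adjusted p = 0.195). For the other INK4 and senescence-linked inhibitors the largest value was that of Cdkn3 (0.66, adjusted p = 0.30). The Max partners had a median of 0.02, with Mxd3 at 0.58 (adjusted p = 0.289), and the turnover genes had Cdc25a, a phosphatase that activates cyclin-dependent kinases, at 0.36 (adjusted p = 0.198). Of 13 p53 targets 8 had higher means, and Btg2 at 1.15 (adjusted p = 0.208) reached 4854 in βCat-GOF. Among the imprinted neighbours of Cdkn1c 9 of 11 were tested, Ascl2 and Kcnq1ot1 were not, and Igf2 was at -0.79 (adjusted p = 0.198).

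**Figure D5:**
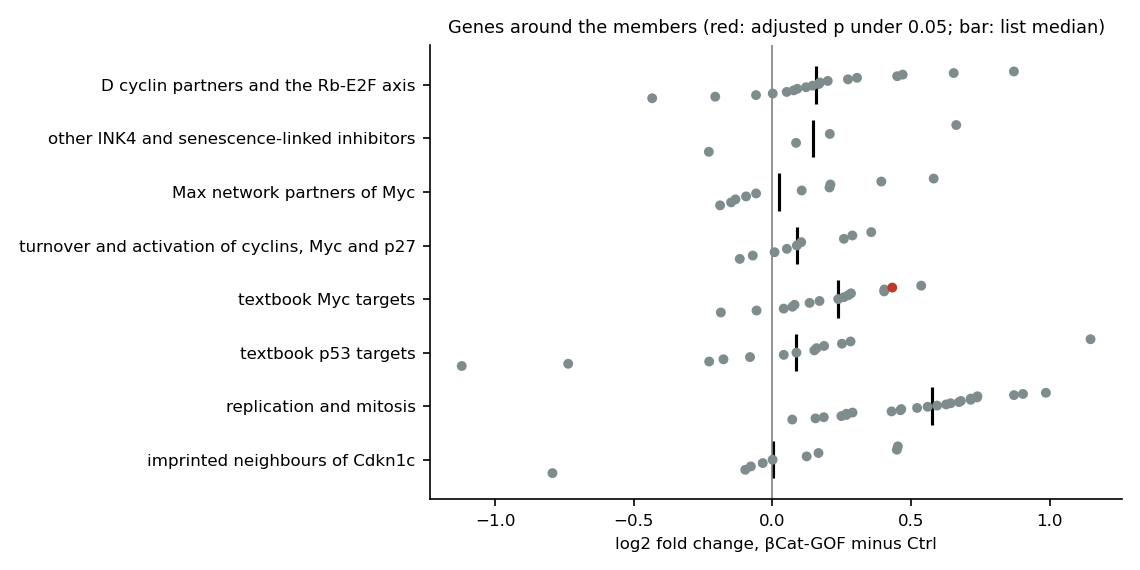
log2 fold change (x axis, βCat-GOF minus Ctrl) of each tested gene in the 8 lists, with red for an adjusted p under 0.05 and a bar at the list median. The replication and mitosis genes all lie right of 0 with a median of 0.58, and Gnl3 is the only red point.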

How the data were processed

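RNA was sequenced from 12 whole adrenal glands, 6 per group. The authors deposited raw counts per gene, made after alignment with STAR and featureCounts 1.4.4, and a signal table of normalized counts, counts divided by size factors from DESeq2 1.6.3 (versions from the submitters' processing notes). The annotation release and strand setting are not given in the sources used here. Each column was matched to a sample by its label, and 0 columns had no sample. The 10 genes and the lists were chosen with earlier results of these data known.

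Counts were tested in edgeR 4.0.16 (R 4.3.3; TMM, filterByExpr, quasi-likelihood, two-sided, Benjamini-Hochberg over 14953 genes, called at adjusted p under 0.05). Normalized counts are counts divided by DESeq2 1.42.0 size factors, and log2 CPM used a prior count of 2. Positions came from GENCODE M21, matched for 37607 of 39017 identifiers. On simulated data for this comparison, edgeR recovered 48 of 100 genes changed 1.5-fold and 91 of 100 changed 2-fold, with 11 false calls among 14828 genes tested. On the same data DESeq2 recovered 63 and 94, with 32 false calls among 14953. The changed genes were drawn from those with a mean over 100 counts, so the recovery does not cover Mycl. DESeq2, 1 surrogate variable (sva 3.50.0), other filters, the study's cut-offs, left-out mice and transcript lengths were alternatives. All 10 genes were named. From each list the genes called, or else the gene with the largest change, were named, and for Mycl the 3 most correlated genes. Tests between the groups set the difference in level against the spread between these mice. Leaving out βCat-GOF mice 1 and 2, summing family levels, and the clock gene and cyclin pair correlations were added after the values were seen. Promoter windows are from RefSeq.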

Additional observations from a re-analysis of the deposited data

Results flagged for a closer look

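In 20 groups of 6 mice examined (10 genes in each genotype), 4 had a mouse set apart from the other 5 by a gap over 0.625 of the group's range. Chance gives about 1 in 20 such groups. In Ctrl, mouse 2 was high for Ccnd1 at 4686 normalized counts, with 3392 next. In βCat-GOF, mouse 1 was high for Mycn (180, with 103 next) and for Mycl (20.1, with 10.7 next). βCat-GOF mouse 5 was high for Cdkn1a at 880 normalized counts, with 367 next.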

How the results depend on the processing

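No paired analysis was possible because the groups share no replicate numbers in the labels. The count of the 10 genes higher (0 by edgeR with all mice) was 1 with DESeq2, 2 with 1 surrogate variable, 1 without βCat-GOF mice 1 and 2, and 0 to 1 with each mouse left out. The count lower (1) was 0 with 1 surrogate variable, without the mouse labelled with another number (βCat-GOF mouse 5) and at adjusted p under 0.01. With each mouse left out it was 0 to 1. It was also 0 with at least 10 counts in every mouse and with the study's cut-offs. Both of those rules exclude Mycl for its low counts, so both values were fixed beforehand. List genes higher (1) were 5 with DESeq2, 0 with no filter on low counts, 2 with 1 surrogate variable, 2 without mice with a repeated label stem, 0 without the mouse labelled with another number, 10 without βCat-GOF mice 1 and 2, and 0 to 4 with each mouse left out. List genes lower (0) were 3 without βCat-GOF mice 1 and 2. That last setting was chosen after seeing the data, for the high Ccnd1 and Ccnd2 of the 2 mice, and is no independent check of those genes or of Ccnd3, which was lowest in them within βCat-GOF.

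The direction turned for Mycn with 1 surrogate variable (0.25) and for Cdkn1b without βCat-GOF mouse 3 (with a range of -0.0398 to 0.24 with each mouse left out). The difference in share of Ccnd2 (-0.43 percentage points) turned to 0.543 with the longest transcript as length, to 0.848 without Ctrl mouse 3, and to 0.17, 0.891 and 0.323 without βCat-GOF mouse 3, 4 or 6, in a range of -1.90 to 0.891. That of Mycn (-0.20) turned to 0.815 and 0.219 without Ctrl mouse 3 or 4, and to 0.167, 0.199 and 0.417 without βCat-GOF mouse 3, 4 or 6, in a range of -0.913 to 0.815. Without the 2 mice farthest from the median score, r with the target score turned sign in 10 of 20 relations: in Ctrl to -0.0454 for Ccnd3, 0.446 for Myc, 0.811 for Mycl, 0.216 for Cdkn1a and -0.931 for Cdkn2c, and in βCat-GOF to -0.54 for Myc, 0.0913 for Cdkn1a, 0.307 for Cdkn1b, 0.465 for Cdkn1c and -0.0766 for Cdkn2c. The cause was not tested. The fall in the share of Mycl kept its direction with the longest transcript as length and with each mouse left out. The groups did not overlap for this share, so leaving out 1 mouse could not undo the separation. Those settings are no independent check. Shares were not run with a surrogate variable or other filters. Over 20 alternatives Ccnd1 stayed higher in βCat-GOF and passed in 4. These count 1 fit under 2 names, since the mouse labelled with another number is βCat-GOF mouse 5. They also include the setting chosen on the Ccnd1 values. At 6 to 26 counts, Mycl in βCat-GOF is limited by depth.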

Other observations

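Within βCat-GOF, Ccnd1 and Ccnd2 rose and fell together over the 6 mice (Pearson r = 0.97, exact permutation p = 0.00139, the smallest possible, adjusted over 6 relations 0.00833; Spearman rho = 1, exact permutation p = 0.00278, adjusted 0.0167). Without βCat-GOF mice 1 and 2, the farthest from the median for Ccnd1, r was 0.87 over 4 mice. In Ctrl r was 0.22 (exact permutation p = 0.592, adjusted 0.60), and the difference between the groups was not tested. These pairs were examined after the values were seen.

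βCat-GOF mouse 5, the mouse with the high Cdkn1a, also stood outside the other 11 mice for 10 of 18 circadian clock genes, a set taken up after its values were seen. Npas2 was at 219 normalized counts in that mouse and 7.62 to 28.3 in the others, and Tef was at 1495 against 3595 to 5306. Over the 12 mice Cdkn1a went with Npas2 at r = 0.90 (permutation p = 0.00608, adjusted over 18 genes 0.0399; rho = 0.68, permutation p = 0.0191, adjusted 0.153) and with Tef at r = -0.91 (permutation p = 0.00853, adjusted 0.0399; rho = -0.59, permutation p = 0.0456, adjusted 0.153). Without that mouse r was 0.48 and -0.42, so the relation rests on it. By edgeR 0 of the 18 clock genes were called between the groups. The label of mouse 5 starts with a different number from those of its group.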
